A study of Mus musculus with 6 samples.

Results

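The epidermal growth factor (EGF) receptor family, also called the ERBB family, was followed in SCC7, a mouse squamous cell carcinoma line, without and after irradiation. The members were chosen by name as 3 receptors (Egfr, Erbb2 and Erbb3) and 6 ligands (Areg, Ereg, Hbegf, Tgfa, Btc and Epgn), and all 9 were among the 17030 genes of the deposited table. The control group held 3 libraries labelled as SCC7 cells with no treatment, and the irradiated group held 3 libraries labelled as SCC7 cells given radiotherapy. The protocol text states 9 Gy and stands unchanged on all 6 samples, so the split into groups rests on the treatment label and the titles alone. Control 3 resembled the irradiated libraries more than the other controls. All 6 libraries carry the label day 0, so the interval from irradiation to harvest is not stated, and both groups are the same line grown in high-glucose medium with serum. The labels do not say whether a group's libraries are separate cultures, and its p-values therefore rest on a spread between libraries that may be technical. Values are FPKM, fragments scaled by transcript length and library total, and the number of reads behind them is unknown.

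ERBB receptors are cell-surface tyrosine kinases that dimerize, in most cases after a ligand binds, and signal through the RAS-ERK and PI3K-AKT pathways to growth and survival. Their ligands are made as membrane-anchored precursors and are released by metalloproteases such as ADAM17. In squamous epithelia and their tumours this family is a main driver of proliferation, and EGFR is a drug target in head and neck cancer.

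Several ligand genes are neighbours, with Epgn, Ereg, Areg and Btc side by side on chromosome 5 within 375.5 kb (GRCm38.p6, RefSeq). No other protein-coding gene of that annotation lies between them. Epgn lies at chr5:91027517-91035212, Ereg at chr5:91074617-91093649, Areg at chr5:91139599-91148432 and Btc at chr5:91357261-91402994. The start of Ereg overlaps the non-coding gene Gm19610 by 319 bases. Egfr lies at chr11:16752203-16913907, Erbb2 at chr11:98412484-98437716, Erbb3 at chr10:128567523-128589635 and Tgfa at chr6:86195038-86275744. The non-coding genes Gm39584 and Egfros lie within the Egfr gene, and a non-coding gene, Gm41698, overlaps Hbegf. Whether the counting used strand is not given in the sources used here, so reads from such partners cannot be told apart.

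RefSeq upstream sequence (GRCm38.p6) was used for 6 of the 9 members. The 250 bases before the annotated start are printed for Btc, Areg and Epgn, a called gene and 2 uncalled neighbours in the chromosome 5 cluster, and for Egfr, the receptor with the widest range of levels. Capitals mark matches, on either strand, to 6 motifs: AP-1 (TGANTCA), the cyclic AMP response element CRE (TGACGTCA), the GC box (GGGCGG), the TATA box (TATAAA), the STAT element GAS (TTCNNNGAA) and NF-kB. The windows are chr5:91402995-91403244 on the minus strand for Btc, and on the plus strand chr5:91139349-91139598 for Areg, chr5:91027267-91027516 for Epgn and chr11:16751953-16752202 for Egfr.
Btc: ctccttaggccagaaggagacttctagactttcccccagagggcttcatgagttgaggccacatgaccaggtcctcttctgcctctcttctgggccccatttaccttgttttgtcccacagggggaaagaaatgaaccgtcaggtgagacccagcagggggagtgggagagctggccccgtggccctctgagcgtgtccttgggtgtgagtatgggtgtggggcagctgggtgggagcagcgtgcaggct
Areg: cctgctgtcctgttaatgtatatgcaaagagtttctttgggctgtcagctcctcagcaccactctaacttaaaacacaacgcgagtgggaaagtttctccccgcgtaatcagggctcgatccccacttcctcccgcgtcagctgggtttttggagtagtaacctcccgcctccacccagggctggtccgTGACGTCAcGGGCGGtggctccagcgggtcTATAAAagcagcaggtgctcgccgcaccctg
Epgn: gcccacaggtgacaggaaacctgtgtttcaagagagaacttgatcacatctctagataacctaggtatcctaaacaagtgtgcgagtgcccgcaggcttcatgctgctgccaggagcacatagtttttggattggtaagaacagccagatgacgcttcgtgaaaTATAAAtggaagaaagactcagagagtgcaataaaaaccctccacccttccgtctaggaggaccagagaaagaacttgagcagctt
Egfr: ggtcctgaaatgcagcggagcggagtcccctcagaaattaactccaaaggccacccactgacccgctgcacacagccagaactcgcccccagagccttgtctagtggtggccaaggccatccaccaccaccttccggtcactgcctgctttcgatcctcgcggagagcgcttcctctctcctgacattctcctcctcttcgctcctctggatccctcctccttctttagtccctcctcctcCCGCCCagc
The Areg window held a CRE match 61 to 54 bases before the start, a GC box at 52 to 47 and a TATA box at 31 to 26. A CRE match was present in 1.55% of all 32851 promoter windows of the same length, a TATA box in 12.4% and a GC box in 32.7%. Epgn held 1 TATA box match, 86 to 81 bases before the start, and Egfr held 1 GC box match on the minus strand, 9 to 4 bases before it. No letters of the 6 motifs were found in the Btc window, and no matches overlapped one another. The AP-1, GAS and NF-kB letters were in none of these 4 windows and in 6.75%, 7.02% and 7.25% of all promoter windows.

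Amphiregulin and epiregulin transcripts were the most abundant of the 9 members in SCC7 cells. In controls the order of mean levels per length was Areg (46.8 FPKM), Ereg (27.3), Hbegf (12.7), Erbb2 (7.99), Egfr (4.26), Btc (2.67), Epgn (1.68), Erbb3 (0.247) and Tgfa (listed at 0). The ranges of Hbegf and Erbb2, Erbb2 and Egfr, Egfr and Btc, and Btc and Epgn overlapped among the controls. Within each control library, Hbegf was above Erbb2 and Btc was above Epgn. The order of Erbb2 and Egfr, and of Egfr and Btc, changed between control libraries. In irradiated libraries Egfr (9.67 FPKM) stood above Erbb2 (8.52), and among neighbours in the order only Erbb2 and Btc (6.97) overlapped. Areg and Ereg together made 78.1% to 84.5% of the summed FPKM of the 6 member ligands across the 6 libraries. The neuregulins and Egf are not in that sum, and of these Nrg1 was at 3.42 to 17.91 FPKM. The ligand sum was 111.08, 86.31 and 76.38 FPKM in controls 1 to 3 and 129.01, 113.71 and 116.30 in irradiated libraries 1 to 3. The share of Btc in that sum was 1.97% to 3.88% in controls and 4.92% to 6.27% in irradiated libraries.

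SCC7 cells lacked several transcripts that define squamous epithelium, which is the background against which the receptors were read. Krt5, Krt14, Krt6a, Krt17, Cdh1, Epcam and Dsp were below 1 FPKM in all 6 libraries (7 of 12 markers), whereas Krt8, Krt18 and Vim were abundant. Of the mesenchymal markers other than Vim, Fn1, Twist1, Zeb1, Zeb2 and Snai2 were above 1 FPKM in every library. Cdh2 was at 0.95 to 1.98 FPKM in controls and 0.60 to 0.71 FPKM in irradiated libraries. Itgb4 was present at 10.82 to 18.16 FPKM and Sfn at 1.79 to 5.07 FPKM. Trp63 reached 1.10 FPKM in control 3 and stayed below 1 FPKM in the other libraries. The sum of the 12 squamous and epithelial markers, nearly all Krt8 and Krt18, was 713 to 1914 FPKM in controls and 504 to 515 in irradiated libraries. Krt18 was called lower (log2 fold change -1.82, limma adjusted p = 0.0261), the 1 call among 4 tested markers of this list (25%, against 12.0% of all genes). Krt8 was lower in every irradiated library without passing (-1.29, adjusted p = 0.0686). The part of these markers in the differences of the ERBB genes was not tested. Ptprc and 4 other leukocyte markers of 6 measured were below 1 FPKM in every library, and so were all 4 endothelial markers. The remaining leukocyte marker, Cd68, was at 2.11 to 4.52 FPKM in controls and 4.01 to 5.63 FPKM in irradiated libraries. Its groups overlapped and it was not called (log2 fold change 0.48, limma adjusted p = 0.183). Among 5 tested fibroblast markers 2 were called higher in irradiated cells (40%, against 12.0% of all genes). Col1a1, a collagen chain, went from 18.9 ± 0.872 to 45.9 ± 6.58 FPKM (SD, n = 3, log2 fold change 1.23, limma adjusted p = 0.00474), and Dcn, the proteoglycan decorin, from 1.12 ± 0.172 to 5.32 ± 1.70 FPKM (1.54, adjusted p = 0.0086). The other tested fibroblast markers, Col1a2 (log2 fold change 0.05), Pdgfra (0.17) and Pdgfrb (-0.18), were not called, and their groups overlapped. The sum of the 6 fibroblast markers overlapped between groups, at 111 to 212 FPKM in controls and 168 to 193 in irradiated libraries, and Lum was at 0 to 0.03 FPKM. Their part in the differences of the ERBB genes was not tested either. Control 3 correlated more closely with the irradiated libraries (mean Pearson r 0.964 across tested genes) than with the other controls (0.942). Levels also followed transcript length. The Spearman correlation of a library's deviation from the gene mean with length was -0.47 and -0.40 in controls 1 and 2, 0.27 in control 3 and 0.35 to 0.42 in the irradiated libraries.

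Irradiated cells were compared with controls to ask which transcripts of the family differ after radiotherapy. Of the 7 members tested with limma (at least 1 FPKM in at least 3 libraries), Btc alone was called, at an adjusted p below 0.05 over all 11103 genes, and it was higher in irradiated cells. The share called among all genes was 12.0% (9.24% higher and 2.77% lower), so 1 call among 7 is near the background. As deposited, 1026 genes were called higher and 308 lower, against 663 and 564 after quantile normalization. In bulk RNA, fewer cells of a kind and less RNA per cell cannot be told apart. In 4 of the 7 every irradiated library lay above every control (Egfr, Ereg, Hbegf and Btc), in Epgn every one lay below, and Erbb2 and Areg overlapped. Among all tested genes the groups did not overlap in 45.4% (31.8% above and 13.7% below). For a single gene, the exact two-sided permutation test of 3 against 3 cannot go below 0.1, which was the value for each of the members whose groups did not overlap.

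**Figure D1:**
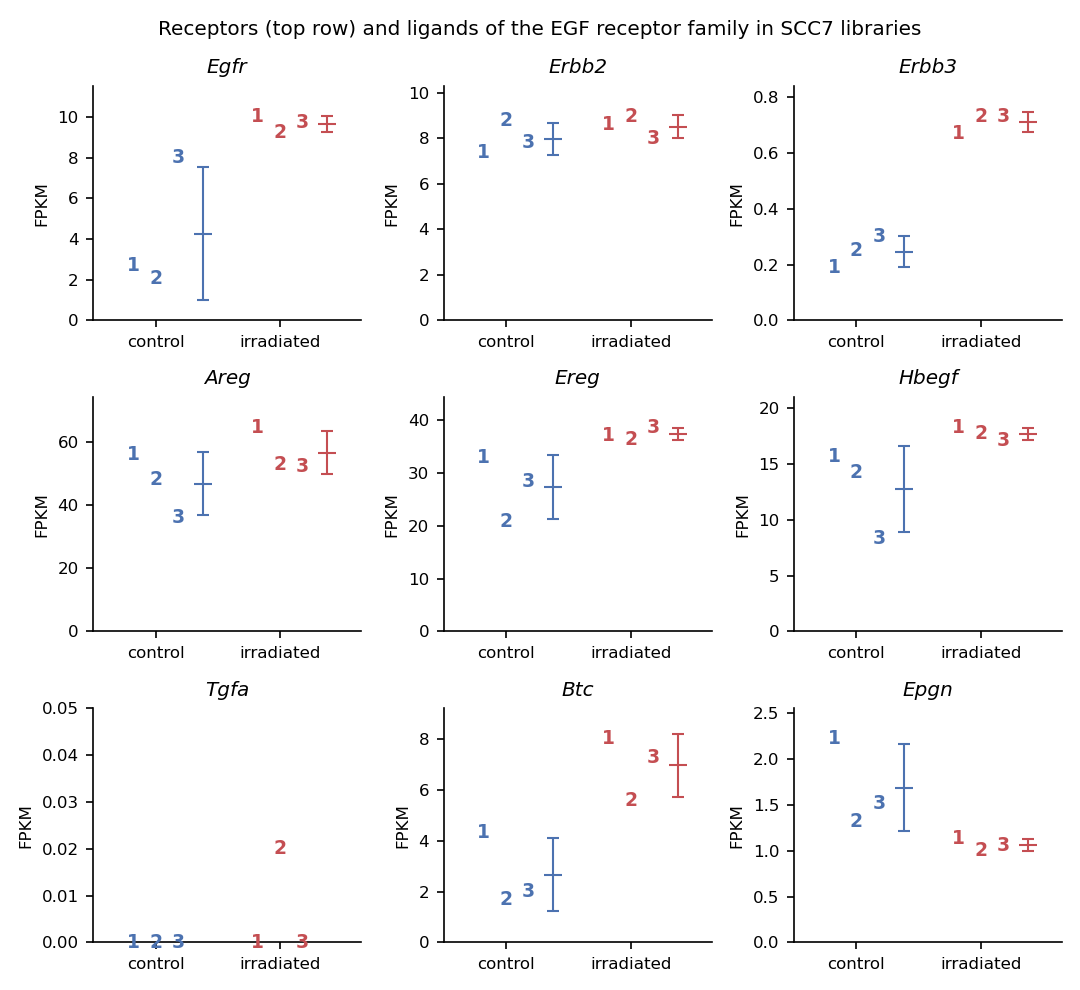
FPKM of each receptor (top row) and ligand in each library, with numerals 1 to 3 marking the library within its group and bars showing the mean and SD (n = 3). Each panel has its own axis from 0, and no mean is drawn for Tgfa, which is listed at 0 in 5 of 6 libraries. Btc, Ereg, Hbegf, Egfr and Erbb3 lie higher in all irradiated libraries, Epgn lies lower, and control 3 stands at 8.03 FPKM for Egfr, close to the irradiated libraries.

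Egfr encodes the receptor that binds EGF, TGF-alpha and amphiregulin. It measured 2.71, 2.05 and 8.03 FPKM in controls 1 to 3 and 10.02, 9.26 and 9.72 FPKM in irradiated libraries 1 to 3. All irradiated libraries were above all controls, but controls 1 and 2 were far below control 3, which was close to the irradiated group. The mean was 4.26 ± 3.28 FPKM (SD, n = 3) against 9.67 ± 0.383 FPKM. The difference did not pass limma, at a log2 fold change of 1.19 (SE 0.39, 95% interval 0.26 to 2.12, adjusted p = 0.0803). Against control 3 alone it was 0.24, and without control 3 it was 1.66 (limma adjusted p = 3.39e-05, in a fit that called 69.1% of all genes).

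Egfr also has the longest transcript of the family, 10208 nucleotides in GENCODE M21, which puts it in the top quintile of tested genes by length. That quintile had a median log2 fold change of 0.46, against -0.22 in the quintile with the shortest transcripts. After each library's trend with length and GC content was removed, Egfr measured 0.63 on the log2 scale (adjusted p = 0.105). When sample weights were estimated for each group, to allow for the wider spread among controls, Egfr was called (adjusted p = 0.0294), as were 16.4% of all genes. The genes with the most similar profile over the 6 libraries, of 8497 searched, were Sptbn1 (root mean square difference 0.03 on the log2 scale) and Zfp516 (0.06).

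Erbb2 encodes the receptor that binds no known ligand and serves as the preferred dimer partner of the others. Its values were 7.39, 8.77 and 7.82 FPKM in controls and 8.61, 8.96 and 7.98 FPKM in irradiated libraries. The groups overlapped and varied little within themselves, with a coefficient of variation of 8.83% among controls and 5.83% among irradiated libraries. Its log2 difference was 0.08 (SE 0.13, 95% interval -0.23 to 0.39, limma adjusted p = 0.646), so a 2-fold change in either direction lay outside the interval. Its sign turned to -0.24 after quantile normalization, -0.14 after trimmed-mean scaling and -0.14 after the length and GC correction.

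Erbb3, a receptor for neuregulins whose own kinase is weak, was at the low end of the table. It measured 0.19, 0.25 and 0.30 FPKM in controls and 0.67, 0.73 and 0.73 FPKM in irradiated libraries. Every irradiated library was above every control, including control 3, and the group means were 0.247 ± 0.0551 and 0.710 ± 0.0346 FPKM (SD, n = 3 each). It did not reach 1 FPKM in any library and was not among the tested genes. In the fit without a filter it was called, at 0.46 on the log2 scale (SE 0.06, limma adjusted p = 0.014), where 7.86% of 17015 genes were called. On that scale, log2(FPKM + 1), the ratio of the means, 2.88, is understated. The Erbb3 transcript, 6016 nucleotides, falls in the length range of the top quintile, where tested genes had a median log2 fold change of 0.46. Erbb3 was not among the genes of the length and GC correction.

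Btc encodes betacellulin, a ligand of EGFR and ERBB4, and it was the only member called in the full comparison. Its values were 4.31, 1.70 and 2.00 FPKM in controls and 8.02, 5.59 and 7.29 FPKM in irradiated libraries. All irradiated libraries were above all controls, the nearest being irradiated library 2 and control 1. The mean went from 2.67 ± 1.43 to 6.97 ± 1.25 FPKM (SD, n = 3), or 1.17 on the log2 scale (SE 0.28, 95% interval 0.50 to 1.84, limma adjusted p = 0.045). Control 3 was near control 2 for this gene, and the difference against control 3 alone was 1.40.

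The Btc call lay close to the threshold and was lost in 11 of 16 alternatives. Over these 16 its limma adjusted p reached 0.205 and its log2 fold change ran from 0.76 to 1.47. The call ended on leaving out control 2 (limma adjusted p = 0.0963) or irradiated library 1, 2 or 3 (0.205, 0.188 and 0.175). Those fits called few genes of any kind, 4.96% of all genes without control 2 and 0.516%, 0.599% and 0.911% without irradiated library 1, 2 or 3. It also ended after quantile normalization (0.76, adjusted p = 0.121, 11.1% of all genes called) and after the length and GC correction (0.78, adjusted p = 0.124, 15.0% called). The closest profiles over the 6 libraries were those of Tnfsf9 and Padi4, at root mean square differences of 0.23 and 0.25 on the log2 scale, a looser match than that of Egfr.

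Ereg, the epiregulin gene, and Areg, the amphiregulin gene, encode the abundant EGFR ligands of these cells. Ereg measured 32.84, 20.77 and 28.41 FPKM in controls and 37.05, 36.41 and 38.59 FPKM in irradiated libraries. Irradiated libraries were all above controls and close together, with a coefficient of variation of 3.00% against 22.3% among controls. The log2 fold change was 0.46 (SE 0.18, 95% interval 0.03 to 0.89) and did not pass limma (adjusted p = 0.114). It was 0.38 against control 3 alone, 0.50 without control 3 (limma adjusted p = 0.0297) and 0.07 after the length and GC correction (adjusted p = 0.762).

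Areg measured 56.06, 48.28 and 36.11 FPKM in controls and 64.58, 53.02 and 52.29 FPKM in irradiated libraries. The groups overlapped, since control 1 was above irradiated libraries 2 and 3. The log2 fold change was 0.29 (SE 0.19, 95% interval -0.17 to 0.74, limma adjusted p = 0.291). Control 3 had the lowest level, so the difference was 0.63 against it alone and 0.11 without it (limma adjusted p = 0.445).

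Hbegf, heparin-binding EGF-like growth factor, binds EGFR and ERBB4. It measured 15.65, 14.24 and 8.35 FPKM in controls and 18.23, 17.67 and 17.07 FPKM in irradiated libraries. Here too the irradiated libraries were all above the controls, and control 3 was the lowest, opposite to its place for Egfr. The means were 12.7 ± 3.87 and 17.7 ± 0.580 FPKM (SD, n = 3), a log2 fold change of 0.48 (SE 0.23, 95% interval -0.06 to 1.03) that did not pass limma (adjusted p = 0.163). It was 1.00 against control 3 alone and 0.23 without control 3 (limma adjusted p = 0.074). The nearest profiles were those of Bola3 and Adamts14, both at 0.06 to 0.07 on the log2 scale.

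Epgn, which encodes the low-affinity EGFR ligand epigen, was the member with lower values after irradiation. It measured 2.22, 1.32 and 1.51 FPKM in controls and 1.13, 1.00 and 1.06 FPKM in irradiated libraries. All irradiated libraries were below all controls, by a narrow margin against control 2. The log2 fold change was -0.37 (SE 0.16, 95% interval -0.74 to 0.01, limma adjusted p = 0.136). It was called lower after quantile normalization (-0.75, adjusted p = 0.0422, with 11.1% of all genes called) and without control 3 (-0.41, adjusted p = 0.0405). Tgfa, which encodes TGF-alpha, was listed at 0 in all controls and in irradiated libraries 1 and 3, and at 0.02 FPKM in irradiated library 2.

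The cluster on chromosome 5 therefore held neighbours with different values. Btc, at one end, was called higher, Ereg and Areg between them had positive log2 fold changes that did not pass, and Epgn, at the other end, had a negative one that did not pass. The differences between these genes were not tested.

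**Figure D2:**
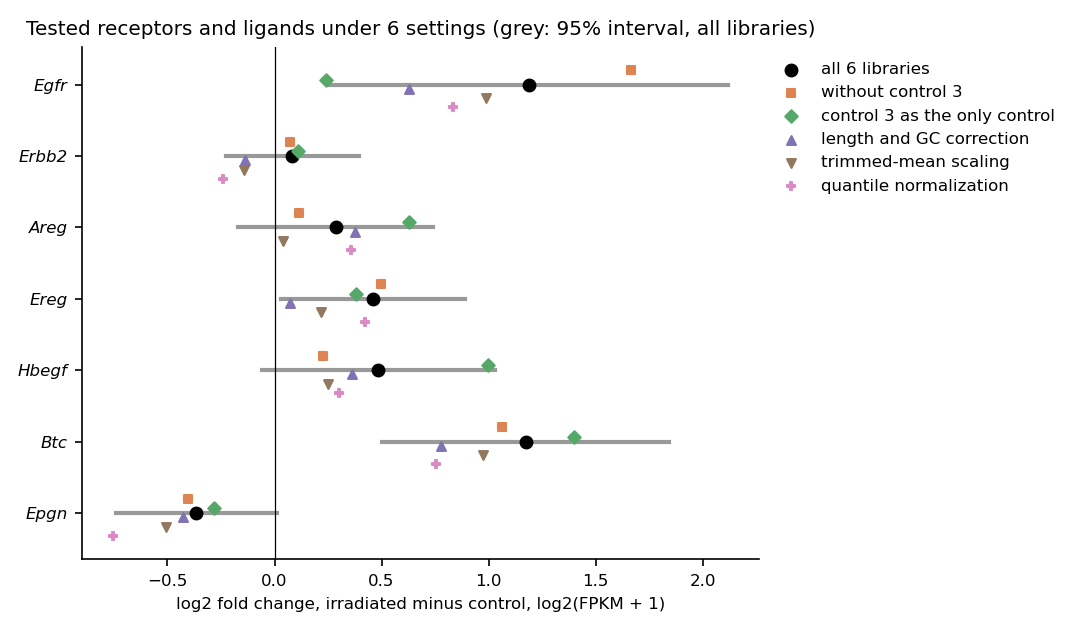
Log2 fold change of each tested receptor and ligand, as log2(FPKM + 1) in irradiated minus control libraries, with all 6 libraries (black, grey bar the 95% interval) and under 5 alternative settings. Btc stays between 0.76 and 1.40 in these settings, Egfr runs from 0.24 (control 3 as the only control) to 1.66 (without control 3), and Erbb2 lies on both sides of 0.

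Control 3 moved the members in different directions. Relative to the mean of controls 1 and 2 on the log2(FPKM + 1) scale it was higher by 1.42 for Egfr and by 0.12 for Ereg. It was lower for Hbegf (-0.77), Areg (-0.51), Btc (-0.34) and Epgn (-0.12), and near them for Erbb2 (-0.04). Without control 3, 4 members were called (Btc, Egfr and Ereg higher, Epgn lower), against 69.1% of all genes. With control 3 as the only control, 4 were called higher (Areg, Btc, Ereg and Hbegf), against 37.2% of all genes; there the spread comes from the irradiated libraries alone. Btc was the member called in the full comparison and in both of these.

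**Figure D3:**
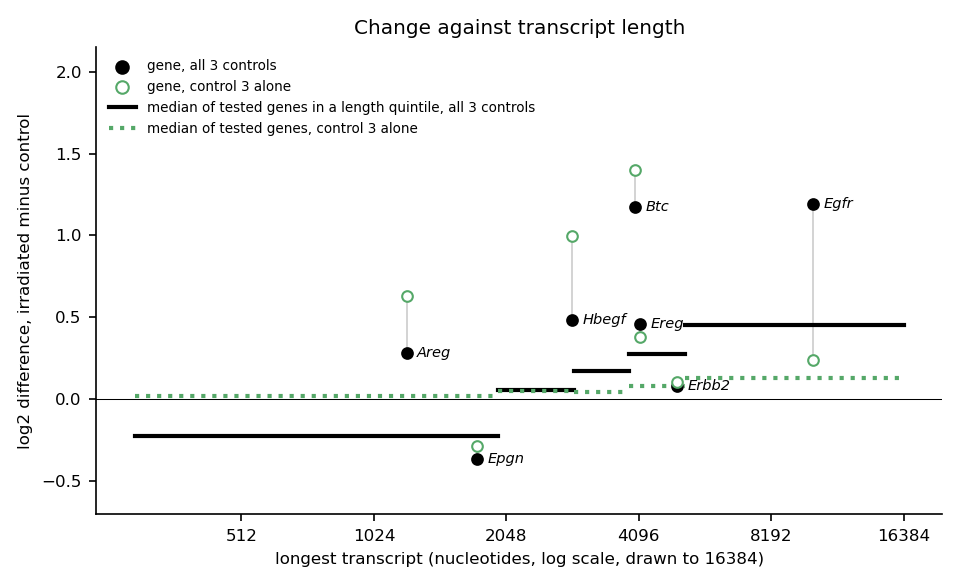
Log2 difference, irradiated minus control, of each tested receptor and ligand against the length of its longest GENCODE M21 transcript, with all 3 controls (black) and with control 3 alone (green, open), beside the medians of all tested genes in each quintile of length. With all controls the medians climb from -0.22 to 0.46, and against control 3 alone they lie between 0.02 and 0.13, with Egfr at 0.24 and Btc at 1.40.

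Other genes of the pathway were read in 5 lists, chosen by function. Of 82 genes tested in these lists, 5 were called higher and 1 lower, 7.32% against 12.0% of all genes. The remaining family genes were mostly near 0. Egf measured 0.18 to 0.22 FPKM in controls and 0.27 to 0.58 FPKM in irradiated libraries, and Nrg4 stayed below 1 FPKM in every library. Erbb4, Nrg2 and Nrg3 were not found by symbol among the genes of the deposited table, so they have no values here. Nrg1, the neuregulin that binds ERBB3 and ERBB4, measured 4.70, 3.42 and 14.63 FPKM in controls and 17.91, 15.66 and 14.11 FPKM in irradiated libraries. As for Egfr, control 3 lay with the irradiated libraries, and Nrg1 differed by 1.20 on the log2 scale without passing limma (SE 0.45, adjusted p = 0.105), or by 0.11 against control 3 alone.

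Among genes that carry ligands to the surface or release them, 1 of 11 tested rose and 1 fell (18.2% called, against 12.0% of all genes). Rhbdf2 encodes iRhom2, a partner that ADAM17 needs to mature, and it rose from 6.80 ± 3.43 to 15.8 ± 1.59 FPKM (SD, n = 3, log2 fold change 1.19, limma adjusted p = 0.0469). Its values were 5.09, 4.56 and 10.75 FPKM in controls and 16.70, 16.77 and 13.99 FPKM in irradiated libraries, so control 3 was the nearest to the irradiated group. Rhbdf1, in the same list, was more abundant, at 32.4 ± 6.96 and 24.9 ± 1.30 FPKM. It had a negative log2 fold change that did not pass (-0.35, limma adjusted p = 0.186). Cnih1, a cargo receptor of the cornichon family, which carries EGF-family precursors in flies, fell from 136 ± 13.5 to 91.8 ± 6.05 FPKM (-0.56, adjusted p = 0.0459). Adam17 itself measured 14.2 ± 6.65 and 20.0 ± 0.662 FPKM and did not pass (0.55, adjusted p = 0.2), with control 3 above every irradiated library at 21.64 FPKM. The calls of Rhbdf2 and Cnih1 were each lost in 10 of 16 alternatives, among them without control 1 or 2 and without any 1 irradiated library. Those fits called 1.63% of all genes without control 1, 4.96% without control 2 and 0.516% to 0.911% without an irradiated library.

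Of 29 adaptors and kinases downstream of the receptors, only Sos1, the exchange factor that activates RAS, was called (3.45%, against 12.0% of all genes). Sos1 rose from 4.35 ± 1.39 to 8.05 ± 0.0586 FPKM (SD, n = 3, log2 fold change 0.79, limma adjusted p = 0.0495), and the call was lost in 12 of 16 alternatives, with a value of 0.23 after the length and GC correction (adjusted p = 0.141). The list had a median log2 fold change of 0.31, against 0.17 for all genes and -0.04 when set against control 3 alone. After the length and GC correction its median was 0.01, against -0.03 for all genes. None of 19 negative regulators was called by limma, although 11 had an unadjusted p below 0.05 (38.3% of all genes did). The count changed with the setting. It was 5 with sample weights per group (Lrig1, Rasa1, Socs4, Spred2 and Usp8, all higher), 26.3% against 16.4% of all genes. After quantile normalization it was 1 (Spry4, lower), 5.26% against 11.1%, and after the length and GC correction 2, 10.5% against 15.0%. Without control 3 it was 16, 84.2% against 69.1% of all genes. Socs4, which encodes a suppressor that targets EGFR for degradation, came nearest, at 3.32 ± 2.34 and 9.20 ± 0.968 FPKM (1.37, adjusted p = 0.0542). The median of this list was 0.47, and it was 0.20 against control 3 alone and 0.05 after the length and GC correction.

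Genes that respond to ERK and growth factor signals held the other calls, with 3 of 22 tested higher and none lower (13.6%, against 12.0% of all genes). Dusp4, a phosphatase that switches off ERK, rose from 5.93 ± 2.09 to 15.9 ± 0.419 FPKM (SD, n = 3), or by 1.33 on the log2 scale (SE 0.23, limma adjusted p = 0.0211). Its controls were 5.90, 3.86 and 8.03 FPKM and its irradiated libraries 15.42, 16.13 and 16.16 FPKM, so the groups lay well apart, with control 3 the highest control. The transcription factor Klf10 rose by 1.21 (adjusted p = 0.0321) and the AP-1 subunit Junb by 1.04 (0.0371). The other 19 did not pass, with log2 fold changes from -0.63 for Ier2 (adjusted p = 0.0674, all irradiated libraries below all controls) to 0.69 for Ier3 (adjusted p = 0.216). Fosl1, another AP-1 subunit, came nearest at 0.59 (adjusted p = 0.0511), with every irradiated library above every control, and Dusp6, Etv5 and Ccnd1 were near 0 at 0.07, 0.03 and 0.03. The median of the list was 0.27, and it was -0.05 against control 3 alone and 0.28 after the length and GC correction. The calls of Dusp4, Klf10 and Junb did not hold on leaving out control 1 (limma adjusted p = 0.104, 0.13 and 0.134) or any 1 irradiated library. Of all genes, 1.63% were called without control 1 and 0.516% to 0.911% without an irradiated library.

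**Figure D4:**
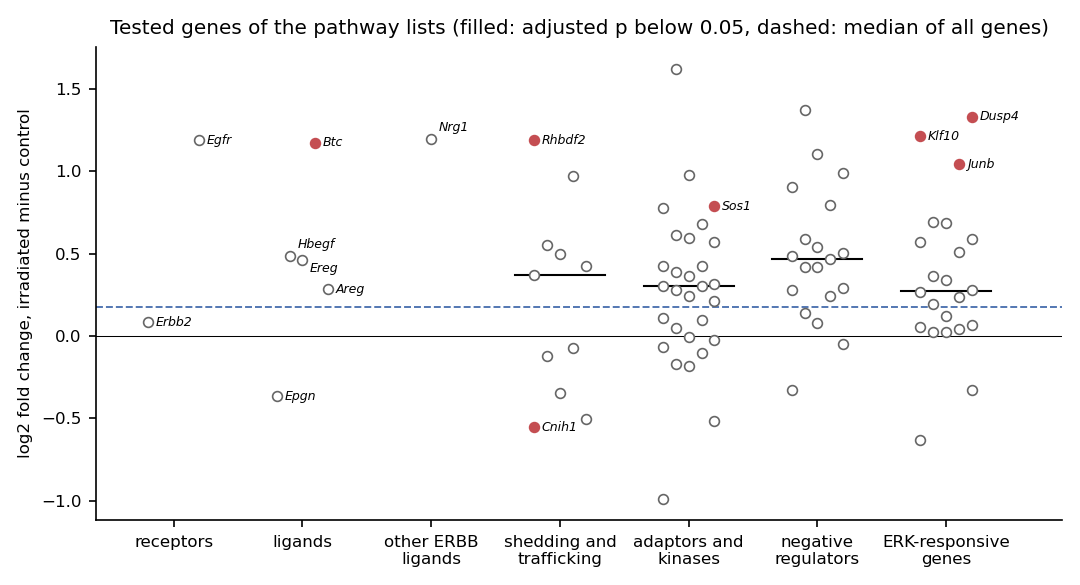
Log2 fold change, as log2(FPKM + 1) in irradiated minus control libraries, of every tested receptor, ligand and gene of the 5 pathway lists, with calls at an adjusted p below 0.05 filled. Short black lines are the medians of lists with at least 3 tested genes outside the family, and the dashed line is the median of all tested genes, 0.17. Btc is the called ligand at 1.17, and Dusp4 is the highest filled point at 1.33.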

How the data were processed

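RNA of 6 SCC7 libraries (3 control, 3 irradiated) was sequenced after removal of ribosomal RNA, per the labels' protocols. The authors deposited FPKM per gene, rounded to 2 decimals, per the file headers. The submitters' processing notes name HISAT and GRCm38.p6; how reads were assigned to genes, with which annotation and filters, is not given in the sources. FPKM holds no read number, so depth is unknown, and a few abundant genes or a trend with length can shift many values at once.

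Genes reaching 1 FPKM in 3 or more libraries entered limma 3.58.1 as log2(FPKM + 1) (R 4.3.3, trend and robust options, 2 groups, Benjamini-Hochberg over 11103 genes, called at an adjusted p below 0.05), and the step was tested on simulated data. No pair of libraries held identical values. Alternatives were quantile normalization, trimmed-mean scaling (log ratios to the mean library), a pseudocount of 0.1, no filter or one at 5 FPKM, moderation without trend or robust options, sample weights per group, a block for the sample number, and leaving out each library. A length and GC correction (longest GENCODE M21 transcript, splines with 4 degrees of freedom, 10930 tested genes with a length) and a comparison with only control 3 were chosen after seeing the data. Gene identifiers were matched to RefSeq of the same build for 16976 of 17030 genes. The members, lists and tests were chosen with earlier results of these data known. Named genes were all members, up to 6 called genes with the smallest p of each pathway list (or the 1 with the smallest p), and the 2 closest profiles for each tested member with a log2 range of at least 1, among genes with a mean of at least 5 FPKM. A gene of the lists is not reported here and was left out of their counts. Adam17, Dusp6, Etv5, Ccnd1, Fosl1, Ier2, Ier3, Col1a1, Dcn, Lum, Itgb4, Sfn, Trp63, Cd68 and the negative regulators other than Socs4 were named after their values were seen. So were Rhbdf1, Col1a2, Pdgfra, Pdgfrb, Cdh2, Fn1, Twist1, Zeb1, Zeb2 and Snai2.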

Additional observations from a re-analysis of the deposited data

How the results depend on the processing

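The directions of the 7 tested members held in each alternative that tested them, except that of Erbb2, which measured -0.24 after quantile normalization, -0.14 after trimmed-mean scaling and -0.14 after the length and GC correction. The number of members called was 1 in the full comparison. It was 0 after trimmed-mean scaling (10.7% of all genes called), with the filter at 5 FPKM (8.18%) and with a pseudocount of 0.1 (9.46%). It was also 0 with the replicate block (2.70%) and after the length and GC correction (15.0%). It was 2 with sample weights per group (28.6%, against 16.4% of all genes). When 1 library was left out it was 0 to 4, in fits that called 0.516% to 69.1% of all genes. The 1 call was Epgn after quantile normalization and Erbb3 without a filter. Pathway list genes called were 6, and 3 with the filter at 5 FPKM, 14 with sample weights, 1 with the replicate block, 26 with control 3 as the only control and 0 to 55 when 1 library was left out. All genes called were 1334 (1026 higher, 308 lower), and 727 with the filter at 5 FPKM, 300 with the replicate block, 4093 with control 3 as the only control and 56 to 7638 when 1 library was left out. After quantile normalization 663 were higher and 564 lower, after trimmed-mean scaling 614 and 575, and after the length and GC correction 807 and 828, as the all-gene median moved from 0.17 to -0.01, -0.05 and -0.03 on the log2 scale. Other causes of these moves were not tested. Same-numbered libraries did not deviate together (correlations -0.11, 0.02 and -0.16), so the numbers were not taken as pairs; with the block Btc had an adjusted p of 0.055. Depth is unknown, which limits what can be said of genes near 0 such as Erbb3 and Tgfa.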
